A study of Mus musculus with 4 samples.

Results

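Heparin-binding EGF-like growth factor (Hbegf), 5 further ligands of the epidermal growth factor (EGF) family (Areg, Ereg, Btc, Egf and Nrg1) and the 4 ErbB receptors (Egfr, Erbb2, Erbb3 and Erbb4) were followed in soleus muscle of *mdx* mice. The 10 genes were taken by symbol from a table of 24054 gene symbols, and each of them was listed there. Hbegf was chosen by its fitted difference between treatments in these same libraries, where it ranked 3 by p and 14 by log2 fold change among the 172 genes called higher after cell treatment. For that reason the values that compare the treatments are given for the 10 genes as a description without a test. *mdx* mice (C57BL/10ScSn-DMDmdx/J, female) carry a mutation in the dystrophin gene, shared by all groups here. From 8 weeks of age they received monthly infusions into the femoral vein for 12 months, either of mouse cardiosphere-derived cells (mCDCs, expanded to passage 5 from 1 heart of a mouse of the C57BL/10ScSn/J background) or of vehicle, which was the culture medium alone. The soleus, a slow hindlimb muscle, was then taken for RNA-seq, with 2 mCDC and 2 vehicle libraries. No muscle from a mouse without the dystrophin mutation or from before treatment was analysed here.

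EGF-family ligands are made as membrane-anchored precursors, and metalloproteases of the ADAM family cut them free. HB-EGF, amphiregulin (Areg), epiregulin (Ereg), betacellulin (Btc) and EGF bind the EGF receptor, some of them also ErbB4, while neuregulins (Nrg) bind ErbB3 and ErbB4. ErbB2 has no known soluble ligand and acts as the partner of the other receptors, and ErbB3 has little kinase activity of its own. In muscle, neuregulin and ErbB signaling is known from the neuromuscular junction, the muscle spindle and the Schwann cells of the motor nerve, and Hbegf is a gene that injured and strained tissues induce quickly.

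The libraries held between 22481391 and 27187425 expected counts, and genes of the muscle fiber such as Acta1 and Myh7 led as the labels imply. Levels are given as CPM, counts relative to library size after scaling with the trimmed mean of M-values. 3 libraries stood apart in genes of a cell or fiber type. Vehicle replicate 2 had a summed level of 206 CPM over 6 endothelial markers and 348 CPM over 6 markers of fibro-adipogenic progenitors, against 92.6 to 115 and 183 to 198 CPM in the other 3 libraries. mCDC replicate 1 had 63 counts of Krt5, 30 of Krt14, 25 of Krt1 and 19 of Krt15, keratins of skin epithelium, where the other 3 libraries had 0 or 1. Other keratinocyte markers were counted in all 4 libraries, with 132, 81, 80 and 105 counts of Krt10 and 402, 364, 426 and 337 of Trp63 in mCDC replicates 1 and 2 and vehicle replicates 1 and 2. Myh1, a myosin of fast fibers, had 4160 and 602 CPM in mCDC replicates 1 and 2 and 4488 and 1660 CPM in vehicle replicates 1 and 2, so that it was lowest in mCDC replicate 2, the library with the highest Hbegf. The part of these differences in the ligand and receptor values was not tested. Nothing in the sample labels said whether replicates came from separate animals, so a p-value measures only the spread between these samples, and with 2 libraries per group the smallest p that exact permutation of one gene allows was 0.333.

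Of the 10 genes, 6 passed the filter on low counts (Hbegf, Btc, Egf, Egfr, Erbb2 and Erbb3) and 4 did not (Areg, Ereg, Nrg1 and Erbb4). In build GRCm38 the genes of 3 ligands lie near each other on chromosome 5, Ereg at chr5:91074622-91093646, Areg at chr5:91139599-91148432 and Btc at chr5:91357261-91402994. Egf lies at chr3:129677565-129755316 and Nrg1 at chr8:31814551-32884029. Of the receptors, Egfr (chr11:16752203-16918158) and Erbb2 (chr11:98412470-98437716) share chromosome 11, Erbb3 lies at chr10:128567523-128589652 and Erbb4 at chr1:68032186-69108059. All are annotated as protein-coding. Their sequences were nearly free of copies. Between 0% and 0.85% of the 31-base words in their annotated transcripts occurred in the transcripts of any other gene, the highest share being that of Egfr. Exons of Egf, Erbb2, Ereg and Nrg1 overlap genes on the opposite strand, for Ereg Gm19610 and for Nrg1 Gm26578. For Erbb2 that is Mien1, with 20.7 to 27.7 CPM, and for Egf it includes 6330410L21Rik, with 3.67 to 4.57 CPM. The strand setting of the counting is not given in the sources used here, so reads of these pairs cannot be told apart.

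The 250 bases before the start, from RefSeq, are shown for 3 genes of very different level: Egf, the ligand with the highest CPM in the vehicle libraries, Erbb2, the receptor with the highest level, and Areg, a ligand near the limit of detection. Capitals mark a TATA box, searched as TATAAA on both strands. The windows lie in build GRCm38.p6 at chr3:129755323-129755572 on the minus strand for Egf, chr11:98412234-98412483 on the plus strand for Erbb2 and chr5:91139349-91139598 on the plus strand for Areg.
Egf: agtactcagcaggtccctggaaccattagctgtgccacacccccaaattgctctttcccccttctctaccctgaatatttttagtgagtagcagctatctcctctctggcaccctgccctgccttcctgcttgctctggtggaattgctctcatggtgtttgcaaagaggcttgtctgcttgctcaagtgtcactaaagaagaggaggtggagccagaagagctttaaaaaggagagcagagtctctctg
Erbb2: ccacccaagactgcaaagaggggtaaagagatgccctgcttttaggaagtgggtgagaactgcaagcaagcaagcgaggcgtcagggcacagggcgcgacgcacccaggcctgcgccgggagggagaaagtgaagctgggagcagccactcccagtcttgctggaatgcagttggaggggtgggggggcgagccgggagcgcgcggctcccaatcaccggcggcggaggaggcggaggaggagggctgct
Areg: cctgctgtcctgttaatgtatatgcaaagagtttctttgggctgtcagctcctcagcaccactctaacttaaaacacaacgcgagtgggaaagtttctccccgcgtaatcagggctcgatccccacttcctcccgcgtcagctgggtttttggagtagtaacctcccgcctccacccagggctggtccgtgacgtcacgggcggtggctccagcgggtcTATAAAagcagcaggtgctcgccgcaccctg
The Areg window alone among these held a TATA box, a sequence present in 12.4% of 32851 annotated windows of the same length. None of the 3 held a match to TGANTCA, the letters of an AP-1 site, which 6.75% of all windows did, or to the MEF2 motif, which 3.2% did. GC content was 50.4% for Egf, 66% for Erbb2 and 57.2% for Areg. A match or its absence describes these letters only, and no promoter readout was part of these data.

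Hbegf, the heparin-binding ligand of the EGF receptor, lies on chromosome 18 and has 6 exons in its longest coding transcript. It had 19.3 and 34.4 CPM in mCDC replicates 1 and 2, and 7.17 and 6.65 CPM in vehicle replicates 1 and 2. Both mCDC libraries lay above both vehicle libraries, and the lower of the mCDC libraries was 2.70 times the higher of the vehicle libraries. The group means were 26.9 ± 10.6 CPM (SD, n = 2) and 6.91 ± 0.37 CPM (SD, n = 2), a fitted log2 fold change of 1.96 (standard error 0.27), or 3.88-fold. The mCDC libraries also differed from each other, with mCDC replicate 2 at 1.78 times mCDC replicate 1, while the vehicle libraries were at a ratio of 0.928. In a whole muscle, a change in the number of cells of a type and a change in RNA per cell cannot be told apart. The macrophage marker Cd68 was also highest in mCDC replicate 2, with 4.13 and 15.4 CPM with mCDCs and 2.71 and 4.15 CPM with vehicle. Among the other 6 macrophage markers, Csf1r (3.93 CPM), Adgre1 (0.37 CPM), and Lyz2 (9.22 CPM) were lowest in that library. Cd14 (1.10 CPM) and Itgam (1.87 CPM) were highest in it, and Mrc1 (4.52 CPM) lay between. The summed level of all 7 macrophage markers, Cd68 included, did not separate the groups, at 28.1 and 36.4 CPM against 24 and 45.1 CPM, and its part in the Hbegf values was not tested.

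Egf, the founding ligand of the family, was the ligand with the highest CPM in the vehicle libraries. It had 24.2 and 36.9 CPM in mCDC replicates 1 and 2, and 35.9 and 36.2 CPM in vehicle replicates 1 and 2. mCDC replicate 1 was low and the other 3 libraries were close together, so the groups overlapped. The log2 fold change was -0.24 (standard error 0.20). Without mCDC replicate 1 it was 0.03, and without mCDC replicate 2 it was -0.57.

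Betacellulin, a ligand of the EGF receptor and ErbB4, was the least abundant of the 6 genes of the family that were tested. Btc had 14 and 10 counts after mCDC treatment and 7 and 12.0 after vehicle, or 0.53 and 0.46 against 0.27 and 0.44 CPM. The groups did not overlap, but the lowest mCDC library was only 1.05 times the highest vehicle library, and the log2 fold change of 0.48 was smaller than its standard error of 0.55.

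The 3 remaining ligands were at the edge of what these libraries could show. A count of 3 was taken as the floor for a library, equal to 0.109 to 0.137 CPM, which covers counting error only. Ereg had 3 and 6 counts in mCDC replicates 1 and 2 and 0 in both vehicle libraries, where a count of 0 allows up to 0.114 and 0.109 CPM. With mCDC replicate 1 at the floor itself, no fold is given. Areg had 1 and 3 counts after mCDC treatment and 7 and 1 after vehicle, so that only vehicle replicate 1 lay above the floor. Nrg1, the neuregulin of motor axons and their Schwann cells, had 1 count in each mCDC library and 3 and 2 after vehicle, all at or under the floor.

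Erbb2 was the most abundant of the receptors. It had 8.86 and 12.9 CPM in mCDC replicates 1 and 2 and 10.1 and 10.7 CPM in vehicle replicates 1 and 2. The vehicle libraries lay between the mCDC libraries, and the log2 fold change was 0.06 (standard error 0.22). Egfr, the receptor of Hbegf and Egf, had 3.90 and 2.92 CPM with mCDCs and 3.36 and 3.42 CPM with vehicle. Here too the vehicle libraries lay between the mCDC libraries, and the log2 fold change was 0.02 (standard error 0.26). The sign of both values depended on the mCDC library used. Without mCDC replicate 1, Erbb2 was at 0.31 and Egfr at -0.21, and without mCDC replicate 2 they were at -0.23 and 0.20.

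Erbb3, the neuregulin receptor of Schwann cells, had the lowest fold change of the 3 receptors tested. It had 5.34 and 3.93 CPM with mCDCs and 6.41 and 6.15 CPM with vehicle. Both mCDC libraries lay below both vehicle libraries, and the log2 fold change, -0.43 (standard error 0.24), did not pass 1.5-fold. Leaving out mCDC replicate 2 gave -0.23, and leaving out mCDC replicate 1 gave -0.67. Of 7 Schwann cell markers, 6 were tested, 0 were called and 1 had a log2 fold change above 0, with a median of -0.57. Their summed level was 43.2 and 42.6 CPM with mCDCs and 41.4 and 50.8 CPM with vehicle. S100b had 0.45 and 0.55 CPM against 0.57 and 1.16 CPM, and Cdh19 0.30 and 0.14 CPM against 0.46 and 0.58 CPM. These 2 lay below in both mCDC libraries, or 33.3% of the 6 tested, beside 19.5% of all genes tested. For Mbp, Sox10, Ngfr and Pmp22 the groups overlapped, and Pmp22 was at 0.03. The part of Schwann cells in the Erbb3 values was not tested. Erbb4 had 0 counts in both mCDC libraries and 2 and 1 after vehicle, at or under the floor in all 4.

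**Figure D1:**
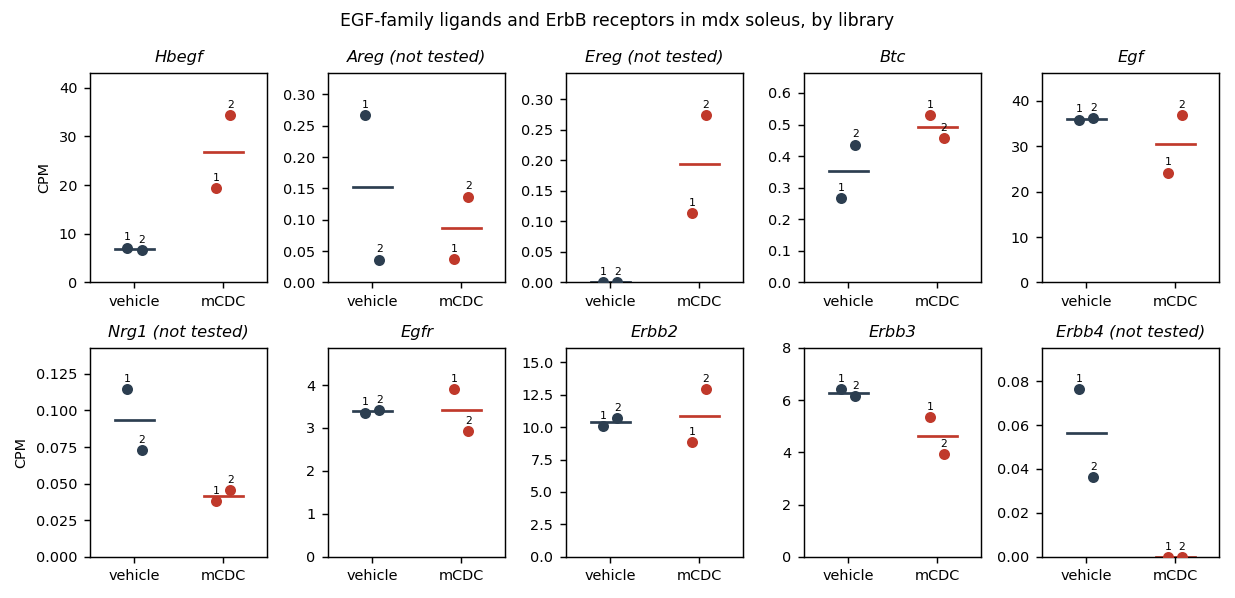
CPM (vertical axis, from 0, a scale of its own in each panel) of the 10 genes in vehicle and mCDC muscles. Points are libraries, numbered by replicate, and lines are group means of 2 libraries. Hbegf had 19.3 and 34.4 CPM in mCDC libraries against 7.17 and 6.65 CPM in vehicle libraries, while the vehicle libraries of Egfr and Erbb2 lay between the mCDC libraries.

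A gene was counted as called where its fold passed 1.5 and its p before adjustment in edgeR's quasi-likelihood test was under 0.05, the thresholds of the study's methods. Hbegf alone of the 6 tested genes was called, and it was higher. Among all 13652 genes tested, 1.26% were called higher and 2.74% were called lower. Hbegf was chosen for this contrast, so nothing is read from that count. Hbegf and Btc lay above in both mCDC libraries, as did 19.2% of all genes tested, and Erbb3 lay below in both, as did 19.5%, so that groups did not overlap for 3 of 6 genes, beside 38.7% of all genes tested. No gene of the table had an adjusted p under 0.05 in edgeR's quasi-likelihood test, against 947 with an unadjusted p under 0.05, while DESeq2 gave 48 with an adjusted p under 0.05.

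**Figure D2:**
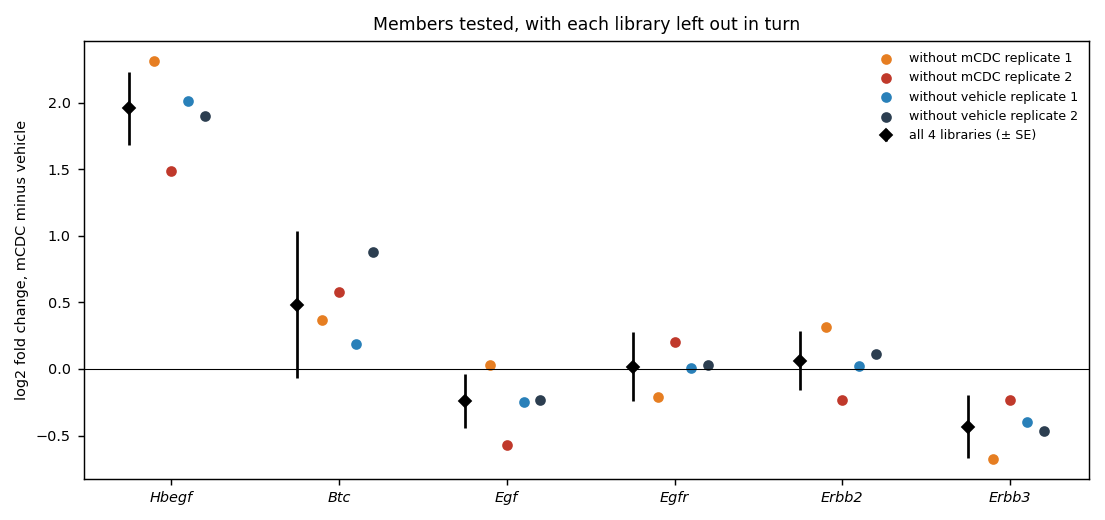
Log2 fold change of mCDC minus vehicle (vertical axis) for the 6 genes tested. Diamonds are the fit to all 4 libraries with its standard error, and circles are the fits with 1 library left out. Hbegf stayed between 1.49 and 2.32, while Egf, Egfr and Erbb2 changed sign with the mCDC library left out.

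Levels of different genes were compared per kilobase, with the summed length of all annotated exons of each gene as its length. In these units the mean over the 4 libraries fell in the order Hbegf (3.49 ± 2.70 CPM per kb, SD, n = 4), Egf (2.95 ± 0.54), Erbb2 (2.04 ± 0.33), Erbb3 (0.907 ± 0.185) and Egfr (0.300 ± 0.035). The ranges of Hbegf and Egf over the 4 libraries overlapped, as did those of Egf and Erbb2. Erbb2 lay above Erbb3, and Erbb3 above Egfr, in every library without overlap of their ranges. Below Egfr came Areg at 0.0984, Btc at 0.0935, Ereg at 0.0235, Nrg1 at 0.0065 and Erbb4 at 0.0023 CPM per kb, where the range of each overlapped that of the next. With the longest transcript as the length, Egf (6.99) came before Hbegf (5.84), and with the longest coding transcript, an alternative chosen after seeing the data, Hbegf (7.11) came before Egf (6.99).

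The order of Hbegf and Egf differed between the groups. In vehicle replicates 1 and 2 Egf stood at 3.18 and 3.21 CPM per kb and Hbegf at 1.48 and 1.38 CPM per kb. With the summed exon length Erbb2, at 1.93 and 2.06 CPM per kb, was also above Hbegf there. With the longest transcript or the longest coding transcript it was below Hbegf. In mCDC replicates 1 and 2 Egf stood at 2.15 and 3.27 CPM per kb and Hbegf at 4.0 and 7.11 CPM per kb. Hbegf was above Egf in both mCDC libraries and below it in both vehicle libraries with each of the 3 lengths. As a share of the 6 ligands per kilobase, Hbegf made up 63.3% and 66.7% in mCDC libraries and 30.0% and 29.2% in vehicle libraries. Among the other 4 ligands the largest share was the 4.44% of Areg in vehicle replicate 1. With the longest coding transcript, the share of Hbegf was 60.4% and 64.2% against 27.7% and 26.4%. These shares rest on the contrast by which Hbegf was chosen and are a description.

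Within the receptors the makeup was more even between groups. Erbb2 made up 58.0% and 73.1% of the 4 receptors per kilobase with mCDCs and 58.6% and 60.8% with vehicle, and mCDC replicate 2 was the library that stood out. The summed level of the 4 receptors was 18.1 and 19.8 CPM with mCDCs and 19.9 and 20.3 CPM with vehicle. The summed level of the 6 ligands was 44.3 and 72.1 CPM against 43.7 and 43.4 CPM, so mCDC replicate 1, in which Egf was low and Hbegf high, was close to the vehicle libraries.

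**Figure D3:**
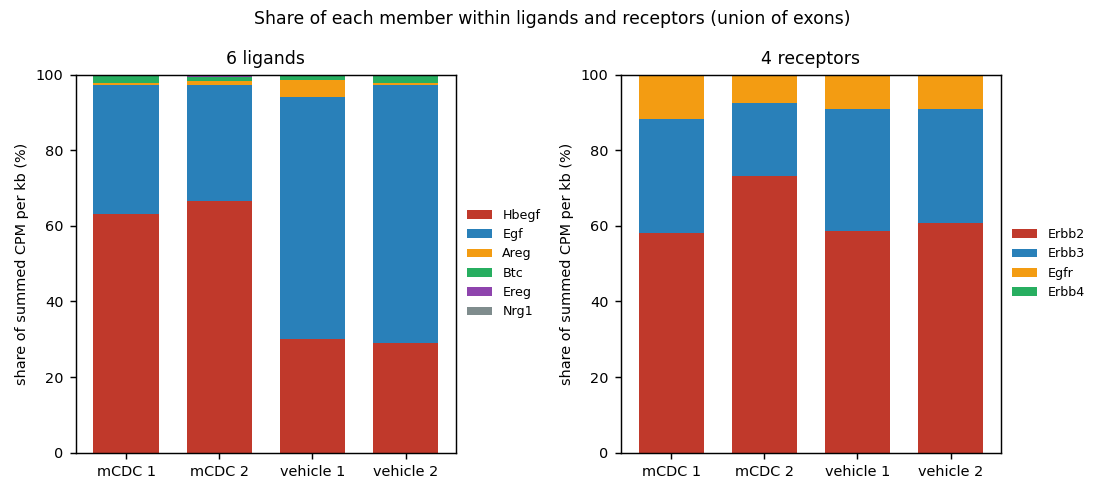
Share of each gene (vertical axis, %) in the summed CPM per kilobase of the 6 ligands (left) and the 4 receptors (right), with bars for the 4 libraries and the summed exon length of each gene as its length. Hbegf took 63.3% and 66.7% of the ligands in mCDC libraries and 30.0% and 29.2% in vehicle libraries, and Erbb2 was the largest receptor share in each library.

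The pattern of Hbegf over the 4 libraries was compared with that of every other gene tested by the Euclidean distance between log2 CPM centered on each gene's mean. The nearest was Tnfrsf12a, the receptor of TWEAK, at a distance of 0.283, with 201 and 414 CPM with mCDCs and 94.9 and 88.5 CPM with vehicle. The next were Dct (0.459), Serpina3n (0.526), Rrad (0.567) and Lcn2 (0.581). Serpina3n, a secreted protease inhibitor, had 28.2 and 64.9 CPM against 11.3 and 7.56 CPM, and Rrad, a small GTPase, had 240 and 506 CPM against 83.5 and 57.3 CPM. Dct and Lcn2 rested on at most 26 counts in any library. In all 5 genes mCDC replicate 2 was the highest library and mCDC replicate 1 the next, as the measure over 4 libraries selects.

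Beyond the 10 genes, 138 genes of the EGF and ErbB pathway were listed by role without regard to their values, although earlier results of these data were known, and 133 of them were tested. 7 rose and 4 fell at the same thresholds, or 5.26% and 3.01%, beside 1.26% and 2.74% of all genes tested. Their median log2 fold change was 0.03, beside -0.01 over all genes tested. In 28 genes both mCDC libraries lay above both vehicle libraries and in 27 below, 21.1% and 20.3% of the list, close to the 19.2% and 19.5% of all genes. The smallest adjusted p in the list was 0.527 in edgeR's quasi-likelihood test, and 16 of its genes had an unadjusted p under 0.05. Leaving out mCDC replicate 2 left 3 genes that rose and 2 that fell, and leaving out mCDC replicate 1 gave 14 that rose. Over all genes, 0.8% rose and 1.69% fell in the former fit, and 2.84% rose in the latter. With 9 ERK feedback genes (sproutys, Spreds and dual-specificity phosphatases) removed from the list, an alternative chosen after seeing the data, 4 rose and 4 fell. Each was 3.23% of the 124 then tested, beside 1.26% and 2.74% of all genes. In 19.4% of them both mCDC libraries lay above both vehicle libraries and in 21.8% below.

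The other ligands were nearly silent. Of 5, Nrg4 and Tgfa were tested. Tgfa, a ligand of the EGF receptor, had 0.11 and 0.18 CPM with mCDCs and 0.38 and 0.40 CPM with vehicle. The groups did not overlap, at 11 counts or fewer in each library, and the log2 fold change of -1.40 (standard error 0.70, edgeR adjusted p = 0.727) was not called. Nrg4, a neuregulin that binds ErbB4, fell, from 0.84 and 0.87 CPM in the vehicle libraries to 0.42 and 0.37 CPM in the mCDC libraries (log2 fold change -1.11, standard error 0.46, edgeR adjusted p = 0.713). The groups did not overlap, but the call rested on at most 24.5 counts and was lost with any 1 library left out, with values from -1.22 to -1.03, as well as with DESeq2 (-1.12) and with the replicate block (-1.12). Epgn, epithelial mitogen, had 0.30 and 0.78 CPM with mCDCs and 0.31 and 0.25 CPM with vehicle and was not tested. Nrg3 was at 0 in all 4 libraries, which allows up to 0.109 to 0.137 CPM.

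The genes that cut and process the ligands did not pass the test, with 0 of 13 called in either direction and 0 at an unadjusted p under 0.05. Nrdc, a protease that binds HB-EGF and is listed as Nrd1, was the most abundant at 260 and 274 CPM in mCDC and 303 and 300 CPM in vehicle libraries. Adam9 followed with 84.7 and 78.7 against 101 and 87.8 CPM. Adam17, a sheddase of HB-EGF, had 24.7 and 18.5 against 25 and 21.4 CPM, and its log2 fold change was -0.10 (standard error 0.19). Of the 9 co-receptors and surface proteoglycans, 1 rose, or 11.1% beside 1.26% of all genes tested, and 0 fell. This was Cd44, a hyaluronan receptor that can hold HB-EGF at the surface. It had 10.8 and 25.5 CPM with mCDCs and 11.0 and 9.20 CPM with vehicle, so the groups overlapped and mCDC replicate 2 alone was high (log2 fold change 0.84, standard error 0.36, edgeR adjusted p = 0.713). Without mCDC replicate 2 it was at 0.09, and the call was also lost without either vehicle library, at 0.98 and 0.71, with no filter on low counts (0.84), with at least 10 counts in every library (0.83) and with the replicate block (0.73). The most abundant of this group, the proteoglycan Gpc1 and the tetraspanin Cd81, had log2 fold changes of 0.18 and 0.13 and were not called, nor was Cd9, a tetraspanin partner of HB-EGF, at -0.23.

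Of 21 inhibitors and regulators tested, 2 rose and 0 fell, or 9.52% and 0%, beside 1.26% and 2.74% of all genes tested. Spry2, a feedback inhibitor of receptor tyrosine kinase signaling, had 21.6 and 25.8 CPM with mCDCs and 14.0 and 13.7 CPM with vehicle. The groups were apart and each pair of replicates was close (log2 fold change 0.77, standard error 0.17, edgeR adjusted p = 0.544), and the call held with each library left out, between 0.64 and 0.89. Spry4, of the same family, had 4.69 and 6.62 CPM against 3.66 and 3.56 CPM (log2 fold change 0.64, standard error 0.25, edgeR adjusted p = 0.713). Its call was lost without mCDC replicate 2 (0.38), vehicle replicate 1 (0.67) or vehicle replicate 2 (0.62), and with DESeq2 (0.66). Errfi1 (Mig6), an inhibitor that binds the EGF receptor kinase, was at 0.03 (standard error 0.21) and Lrig1, which promotes ErbB degradation, at -0.06 (standard error 0.14). The most abundant of the group, Erbin and Tnk2, were at -0.15 and 0.01.

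Of 25 adaptors, Plcg1 alone fell, or 4.0%, near the 2.74% of all genes tested, and 0 rose. It encodes phospholipase C gamma, which binds activated EGF receptor, and had 17.1 and 15.8 CPM in mCDC libraries against 25.4 and 27 CPM in vehicle libraries (log2 fold change -0.67, standard error 0.15, edgeR adjusted p = 0.566). The groups were apart, and the call held with each library left out, between -0.73 and -0.62. Grb2, the adaptor that links receptors to Ras, was at 0.02 (standard error 0.14), and the most abundant adaptors Ptpn11 and Pik3ca were at -0.14 and 0.05. None of the 24 kinases, GTPases and STAT factors of the cascade was called, and 1, Jak2, had an unadjusted p under 0.05. Their median log2 fold change was -0.01, with Akt2 at 0.14 and Map2k2 at 0.19.

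**Figure D4:**
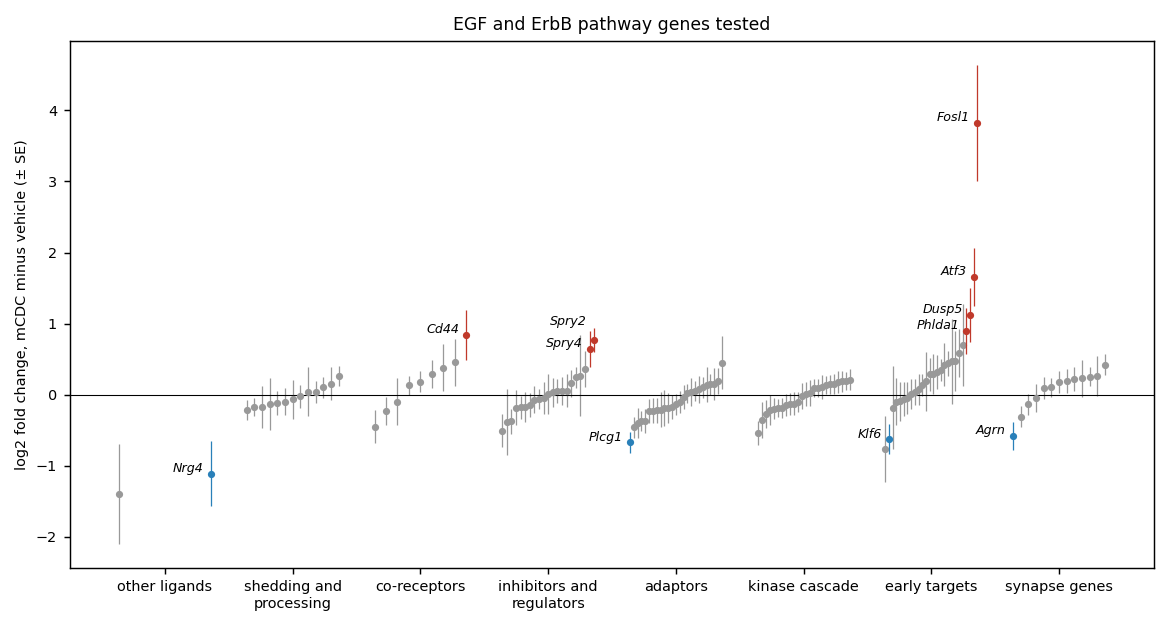
Log2 fold change of mCDC minus vehicle with its standard error (vertical axis) for the 133 pathway genes tested, ordered within 8 groups by role. Genes called higher are red, genes called lower are blue, and both are named. The early target genes held 4 of the 7 genes that rose.

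Of 26 early response genes 4 rose and 1 fell, or 15.4% and 3.85%, beside 1.26% and 2.74% of all genes tested. Fosl1, the AP-1 subunit Fra-1, had 0.95 and 3.52 CPM in mCDC libraries and 0.15 CPM in each vehicle library (log2 fold change 3.83, standard error 0.82, edgeR adjusted p = 0.527). The groups were far apart but the levels low, and the value was 2.63 without mCDC replicate 2. Atf3, a stress-induced transcription factor, had 21.6 and 59.95 CPM against 14.0 and 11.8 CPM (log2 fold change 1.66, standard error 0.41, edgeR adjusted p = 0.567), and stayed called at 0.74 without mCDC replicate 2. Dusp5, a nuclear phosphatase of ERK, had 1.63 and 1.96 CPM against 1.03 and 0.62 CPM (log2 fold change 1.12, standard error 0.38, edgeR adjusted p = 0.684). Its call was lost without mCDC replicate 2 (0.99) or vehicle replicate 2 (0.79), and with DESeq2 (1.13).

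Phlda1, a pleckstrin homology protein induced by growth factors, had 23.0 and 46.0 CPM in mCDC libraries against 22.4 and 14.8 CPM in vehicle libraries. mCDC replicate 1 was only 1.03 times the higher vehicle library, and the log2 fold change of 0.89 (standard error 0.33, edgeR adjusted p = 0.700) lost its call without mCDC replicate 2 (0.31) or vehicle replicate 2 (0.62), with the replicate block (0.84) and with the length and GC trends removed (0.80). Klf6, a zinc finger factor, fell, with 29.8 and 40.2 CPM against 63.1 and 45.2 CPM (log2 fold change -0.63, standard error 0.21, edgeR adjusted p = 0.677). Its call was lost without mCDC replicate 1 (-0.43) or vehicle replicate 1 (-0.36), and with the length and GC trends removed (-0.54). Dusp1, a nuclear phosphatase of MAP kinases, had 149 and 190 CPM with mCDCs against 140 and 110 CPM with vehicle. Its unadjusted p in edgeR's quasi-likelihood test was 0.0351 (adjusted p = 0.713), but its log2 fold change of 0.44 (standard error 0.17) did not reach 1.5-fold. Fos was at 23.2 and 20.3 against 18.2 and 24.1 CPM, and Egr1 at 37.8 and 122 against 25.2 and 73.3 CPM. For Egr1, replicate 2 was the higher in both groups. Dusp6, a cytoplasmic phosphatase of ERK, was at 21.6 and 16.2 against 15 and 21 CPM, and the abundant Jun and Srf had log2 fold changes of -0.05 and 0.35 and were not called.

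**Figure D5:**
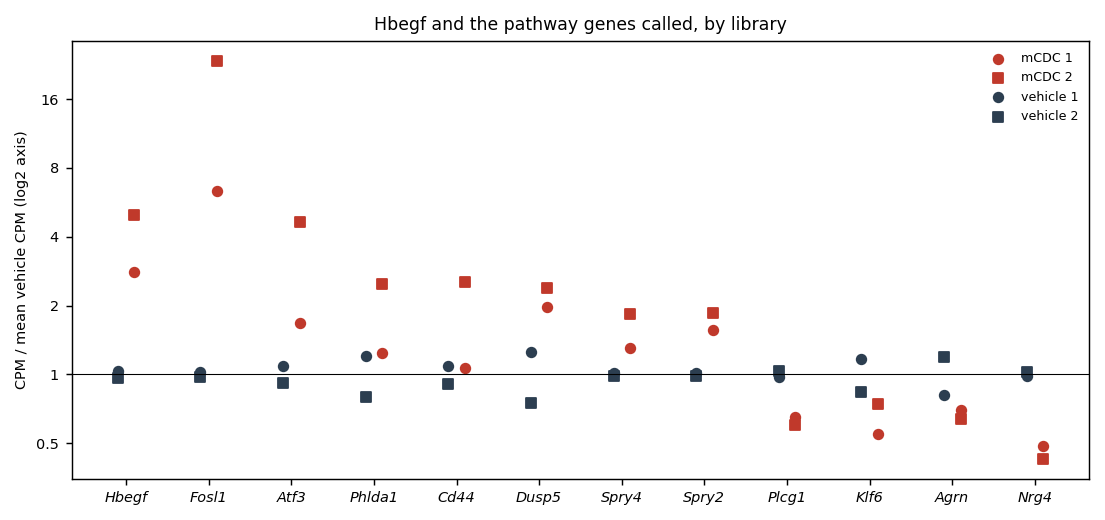
CPM of Hbegf and of the 11 pathway genes called, divided by the mean of the vehicle libraries (vertical axis, log2 scale). Red symbols are mCDC and dark symbols vehicle libraries, with circles for replicate 1 and squares for replicate 2. For Hbegf, Fosl1, Atf3, Phlda1 and Cd44 mCDC replicate 2 stood well above mCDC replicate 1, at 1.78, 3.72, 2.77, 2.0 and 2.37 times its level, while for Spry2 it was at 1.19 times.

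Of 13 genes of the neuromuscular synapse, where neuregulin and ErbB signaling is known to act, 0 rose and 1 fell, or 0% and 7.69%, beside 1.26% and 2.74% of all genes tested. Agrn, the organizer of acetylcholine receptor clusters, had 29.7 and 27.1 CPM with mCDCs and 34.5 and 50.7 CPM with vehicle (log2 fold change -0.59, standard error 0.20, edgeR adjusted p = 0.684). The call was lost without vehicle replicate 2, where it was at -0.28, and without mCDC replicate 2, at -0.52. It was also lost with DESeq2 (-0.57), RLE size factors (-0.58), the replicate block (-0.56) and the length and GC trends removed (-0.50). The acetylcholine receptor subunits Chrna1 and Chrnb1, the most abundant of the list, were at 0.25 (standard error 0.14) and 0.42 (standard error 0.15) and did not reach 1.5-fold.

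Markers of the other cells in the muscle are given for comparison with the ligands and receptors. Of 6 fibro-adipogenic progenitor markers, 2 fell (33.3%), Pdgfra at -0.74 and Lum at -1.02, and of 6 endothelial markers 1 fell (16.7%), Vwf at -0.90. Among all genes tested 2.74% fell and 1.26% rose. For both lists vehicle replicate 2 held the highest level of every gene, and vehicle replicate 2 was at 0.928, 1.63, 1.01, 1.02, 1.07 and 0.959 times vehicle replicate 1 for Hbegf, Btc, Egf, Egfr, Erbb2 and Erbb3. Among 7 macrophage markers, Cd68 rose at 1.49 and Csf1r fell at -0.67, or 14.3% in each direction. Among 4 satellite cell markers tested, Pax7 rose at 0.76 and Chodl fell at -0.87, or 25% in each direction. Of 8 keratinocyte markers in the table, 3 were tested and Lor, which had 32 and 18 counts in mCDC libraries and 2 and 3 in vehicle libraries, was called higher. Of 7 T cell markers, 3 were tested and 0 were called, and the defining markers Cd3e and Cd3g had at most 2 counts in a library. The adjusted p of the marker genes called ran from 0.413 to 0.713 in edgeR's quasi-likelihood test. The part of these cells in the values of the 10 genes was not tested.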

How the data were processed

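Soleus RNA of *mdx* mice, in 2 mCDC and 2 vehicle libraries, was sequenced as single-end reads. The authors mapped reads to a UCSC transcript set and deposited RSEM expected counts per gene symbol, without scaling; the submitters' processing notes name Bowtie2 2.1.0, RSEM 1.2.15 and build mm10. The study's methods and the sample labels name different library kits. The version of the transcript set is not given in the sources used here. 15.7% of the expected counts were not whole, and all were rounded.

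Libraries were grouped by the treatment label. Genes were filtered with filterByExpr, TMM-scaled and tested with edgeR 4.0.16 (quasi-likelihood F-test, legacy = FALSE) in R 4.3.3, with Benjamini-Hochberg adjustment. A call required more than 1.5-fold and p under 0.05 before adjustment. Standard errors were derived from F as the size of the log2 fold change over its square root. Log2 CPM used a prior count of 2. Transcript lengths, GC content and shared 31-base words came from GENCODE annotation of GRCm38, in which 22750 symbols matched by name, 950 by an older name and 354 not at all. Promoter windows came from RefSeq (GRCm38.p6), and those of Areg, Btc, Egf, Egfr, Erbb2 and Erbb4 were searched. Egf had 2 windows, of which window 1 is shown. The fit was tested on simulated data with known changes.

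The 10 genes, the pathway list and the marker lists were chosen with earlier results of these data known. Named were all 10 genes, each pathway gene called and the 2 most abundant genes of each pathway group. The marker genes called and the 5 genes nearest to Hbegf in pattern were also named. Added after their values were seen were Tgfa, Nrg3, Adam17, Cd9, Errfi1, Lrig1, Grb2, Pik3r1, Abl1, Jak2, Fos, Egr1, Dusp1 and Dusp6. Markers added in the same way were S100b, Cdh19, Mbp, Sox10, Ngfr, Pmp22, Cd3e, Cd3g, Acta1, Myh7 and Myh1. So were Trp63, Cd14, Itgam, Mrc1, Adgre1, Lyz2 and the keratins. Alternatives were DESeq2 1.42.0, the legacy form of the edgeR test, RLE size factors, other filters, a replicate block, removal of length and GC trends, other transcript lengths, and fits without 1 library each. The keratinocyte marker Flg was not analysed here. 2 Schwann cell markers are not reported here, and the Schwann list was summarised without them, a choice made after seeing the data.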

Additional observations from a re-analysis of the deposited data

How the results depend on the processing

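With each library left out in turn, the log2 fold change of Hbegf ran from 1.49 to 2.32, and over the 7 other settings from 1.90 to 1.97. Since Hbegf was chosen by this contrast, the ranges describe its value and give no support for it. The genes called higher among all genes ran from 112 to 397 and those called lower from 236 to 834 with a library left out. For pathway genes the corresponding counts ran from 3 to 14 and from 2 to 5. A fit with 1 library left in a group assumes that this library varies like the other group. Of the pathway genes, 4 fell in the main fit, and 2 fell with DESeq2, with the replicate block and with the length and GC trends removed. Without the ERK feedback genes 4 pathway genes rose in place of 7. The cause of these changes was not tested, apart from the shorter list. No called gene among the 10 or in the pathway list changed direction in any setting in which it had a value.

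The replicate numbers in the titles were checked as pairs. The deviations of same-numbered libraries from their group means correlated at -0.039 over all genes tested. With 2 libraries per group this cannot show whether same-numbered libraries shared a batch that moved part of the genes. With the replicate block, 172 genes were called higher and 308 lower, against 172 and 374 without it, 7 and 2 of them pathway genes, and the log2 fold change of Hbegf was 1.90. Depth limits Areg, Ereg, Nrg1 and Erbb4, which had 7 counts or fewer in every library, so that differences between groups were not detectable for them, and Btc had no value when at least 10 counts were required in every library.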
